A study of Drosophila melanogaster with 19 samples.

Results

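The junctions described here belong to fly genes that make many different circular RNAs: 56 host genes with 10 or more distinct back-splice junctions each, holding 814 of the 4515 junctions listed in fly heads. Members come from joining both replicate tables of heads on exact position and strand, counting the junctions under each host gene name, and keeping the genes that reached 10, without muscleblind (mbl), whose 30 junctions were left out. Since genes were chosen by their number of listed junctions, that number is a description here. At the edge of the rule, 18 genes had exactly 10 junctions (CG11319, CG31145, CG31163, CG34123, CG34363, Ef2b, GluClalpha, SK, Sap47, Ten-m, axo, brp, cpo, det, eag, klar, rg and sm). Another 13 genes with 9 junctions fell outside it (CG11206, CG17684, CaMKI, Ccn, Dscam, Mbs, Nedd4, gish, lap, nAcRalpha-80B, pum, sdt and tutl). The 18 genes inside had 20 to 560 head reads and the 13 outside had 25 to 2836.

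RNA came from heads of Drosophila melanogaster carrying the C4 mutation (slow), which makes RNA polymerase II elongate slowly, or of wild-type Canton-S flies (WT). Both genotypes are labelled Canton-S, and nothing in these counts can check the C4 label. Each genotype has 4 RNA samples, 2 titled 29 and 2 titled 18. The labels do not say what 29 and 18 stand for, and they are called title numbers here. Every RNA sample was depleted of ribosomal RNA with Ribominus and split into a library digested with RNase R, an exonuclease that degrades linear RNA (3 U per µg of RNA, 15 min, 37 °C), and a mock-treated library. That gives 8 RNase R and 8 mock head libraries in 8 groups of 2. Cultured S2 cells add 1 RNase R and 1 mock library, and 1 stranded library was made from 1 of the WT head samples. The kit for all libraries was TruSeq RNA. Whether both replicates of a group come from different flies is not labelled. The p-values therefore cover only the spread seen among these RNA samples, and that spread may be technical.

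A circular RNA forms when the spliceosome joins the donor at the end of an exon back to the acceptor of an upstream exon, and sequencing shows it as a back-splice junction. A gene with several acceptors and donors in play can give a family of circles, some of a single exon and some spanning many. Circles lack free ends, resist exonucleases and accumulate in fly heads, where many come from large neuronal genes with long introns.

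Listed back-splice reads numbered 4871 to 20254 in RNase R head libraries and 800 to 3427 in mock head libraries. The 814 junctions took 14.5% to 16.8% of those reads in RNase R libraries and 18.9% to 22.4% in mock libraries, 18808 reads in all. Levels are given as reads per 10000 listed back-splice reads of the library, so a change is relative to the other circles of that library, and fewer cells of a type and less RNA per cell cannot be told apart. Of 6 neuronal marker genes, 3 (CadN, brp and para) had listed junctions in heads, with 35.9 to 67.7 reads per 10000 together in RNase R libraries and 31.7 to 78.8 in mock libraries, and none had any in S2 cells. In heads, no junction was listed for any of 5 glial markers, nor for elav, nSyb and Syt1 among the neuronal ones. All 6 muscle markers were seen, with 12.8 to 76.7 reads per 10000 in RNase R and 104 to 375 in mock head libraries.

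The 814 junctions had 534 distinct starts and 538 distinct ends, and 604 of them (74.2%) shared a start or an end with another junction of the same gene. In genes with 5 to 9 junctions 832 of 1173 junctions did so (70.9%). In all genes with 1 to 9 junctions the count was 1611 of 3531 (45.6%), a group that includes genes with a single junction, which cannot share. Junctions that shared an end carried 16840 reads with a median of 6 per junction and a median span of 2815.5 bases. The 210 junctions that shared neither carried 1968 reads, with a median of 2 and a median span of 249.5 bases. All hosts but Msp-300 had at least 1 shared site.

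Read in the direction of transcription, 151 upstream ends, the acceptor side of a circle, and 169 downstream ends, the donor side, were used by more than 1 junction. The largest fans lay on the upstream side: 37 upstream ends and 18 downstream ends joined 4 or more partners, and 21 upstream and 6 downstream ends joined 5 or more. A start on the fourth chromosome in pan, the TCF transcription factor of the Wnt pathway, was joined to 9 different ends (4:92947, dm3, plus strand). Its 9 junctions had spans of 542 to 27155 bases and 607 reads together, 54.7% of the reads of pan. The shortest, 4:92947-93488, held 46.5% of the reads of the fan and the next, 4:92947-107792, held 28.3%.

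The secretion factor Caps, which primes dense-core vesicles, had a fan of the same size at 4:1250828, also with 9 partners and with 48.0% of the gene's reads. The junction to 1254609 held 55.7% of that fan and the junction to 1259724 held 20.6%. In sif, a guanine nucleotide exchange factor for Rac, 8 ends were joined to 3L:5697025, and the nearest but one took 71.9% of the reads. These fans were uneven: in each of the 3 a single junction took the largest share, while the rarest members had 2 reads each.

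CG17816, transcribed from the minus strand, put 85.8% of its 853 reads on 6 junctions that met at the upstream end 3R:3691483. Among them, 3R:3689983-3691483 had 289 reads, 3R:3684660-3691483 had 247 and 3R:3689979-3691483 had 129. On the donor side, 7 junctions ended at 4:120101 in pan, where 115049-120101 held 86.9% of the site's reads. Another 7 ended at 4:1025244 in toy, a Pax6 transcription factor, where the junction of 461 bases held 67.5%. The calcium-activated potassium channel gene slo reused its ends in a grid: its 33 junctions came from 11 starts and 14 ends, and all 33 had lengths that match exon boundaries of the annotated gene.

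**Figure D1:**
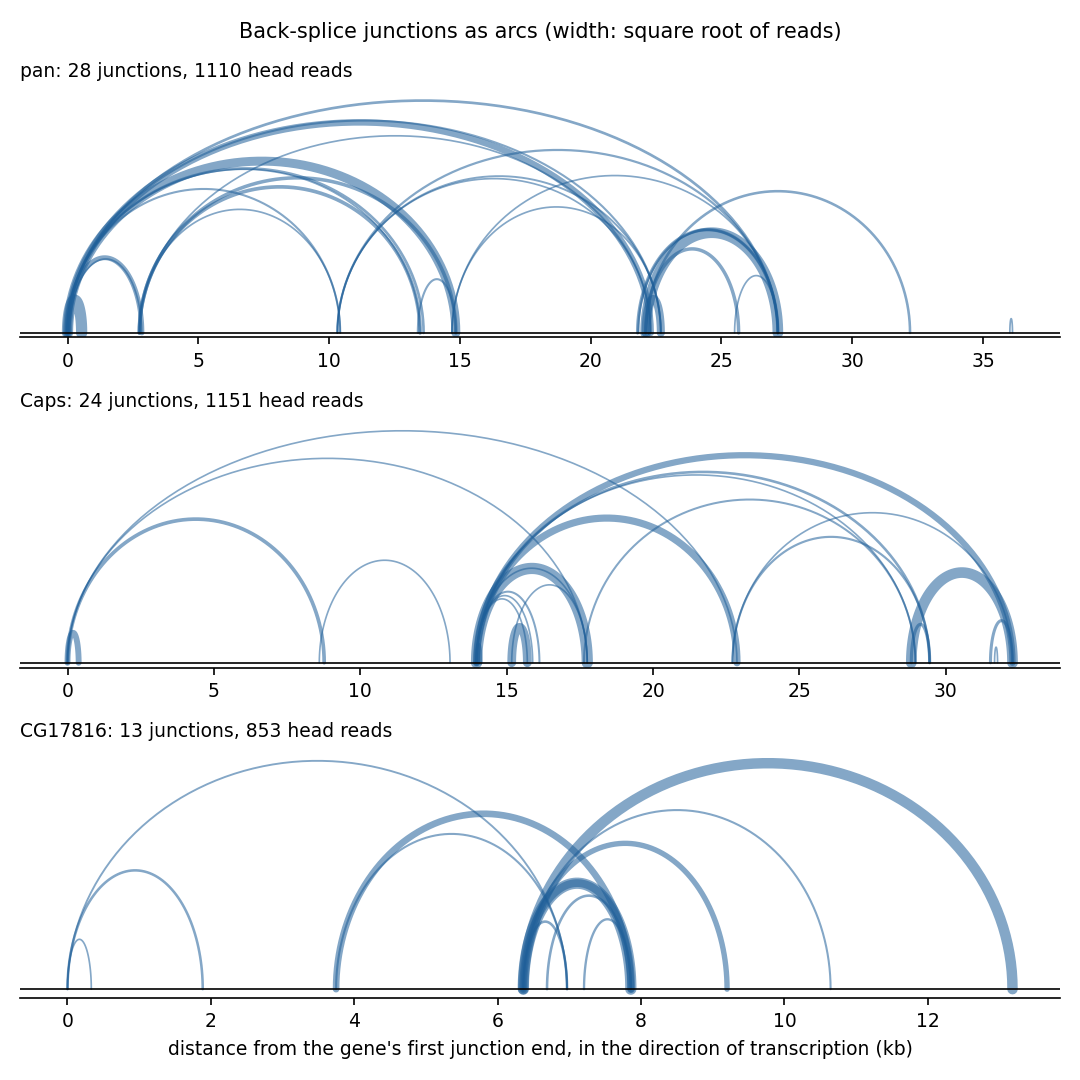
Back-splice junctions of pan, Caps and CG17816 drawn as arcs between their ends, with the distance in kb along the direction of transcription on the horizontal axis and line width following the square root of head reads. Arc height has no unit and grows with span. Many arcs leave from a single upstream end in each gene: 9 in pan, 9 in Caps and 6 in CG17816.

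Lengths were compared with the current annotation, because coordinates of the files' build (dm3) cannot be set on it: a junction counts as matched when its span equals that of a single annotated exon or of a stretch from an exon start to a later exon end of its host. Of the 814 junctions, 46 matched a single exon and 441 matched an exon stretch, 59.8% together. In 38 of the 56 hosts over 50% of junctions matched, in 15 hosts 50% or fewer did, and 3 (Caps, dp and det) had no unique current annotation by name. A 50% line was chosen after the values were seen, and the split is descriptive.

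The 38 hosts with mostly matched lengths and the 15 without differed in several further ways. The 38 had 520 junctions with a median span of 3013.5 bases, and 85.0% of them shared an end. The 15 had 247 junctions with a median span of 208 bases, and 50.2% shared an end. Only 10 of the 520 junctions (1.92%) lay on the strand used less by their host, against 68 of 247 (27.5%) in the 15 hosts. Junctions under 3 reads made up 26.9% of the 520 and 44.9% of the 247, and 58.1% and 34.8% were listed in both replicate tables.

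Among the 15, the matrix protein gene Ppn had the most junctions of all hosts, 37, with a median span of 137 bases, 16 on the plus and 21 on the minus strand and 3 with a matched length. Rfabg, the fat-body apolipophorin, had 28 junctions with none matched, 16 on the plus and 12 on the minus strand. Junctions of ninaE, the rhodopsin of the outer photoreceptors, all lay within 1627 bases. Of its 14 junctions 7 left from 3R:15712023, with ends 102 to 220 bases away. PQBP-1 stood apart in another way: the annotated gene is 928 bases long, and the span of all 12 junctions listed under its name exceeded that, over a reach of 69370 bases. The host label of those 12 junctions is therefore uncertain.

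Distant ends raised the same question for Msp-300, a nesprin of muscle nuclei and the Z-line, and for CG34417. The junction with most reads under Msp-300, 2L:816665-8042117, spans 7225453 bases, while the annotated gene is 106126 bases long. The first junction of CG34417, X:4256493-15005055, spans 10748563 bases, while that gene is 48403 bases long. Their other junctions lay mostly inside the gene: 3 of the 28 Msp-300 junctions and 1 of the 12 CG34417 junctions were longer than it.

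Some ends differed by a few bases only. In 24 pairs from 13 genes the junctions shared one end and differed at the other by 12 bases or less, and in 18 of the 24 pairs the distance was a multiple of 3. Only 8 of the 24 pairs lay in hosts with mostly matched lengths, and there 5 distances were multiples of 3. Some pairs have a junction in common, as in ninaE. Both members reached 10 reads in 5 pairs. In ps (pasilla), the fly ortholog of the Nova splicing regulators, acceptors 3 bases apart gave 3R:5257751-5258561 with 209 reads and 3R:5257754-5258561 with 77 reads, and both lengths matched an annotated exon. In cpo (couch potato), which encodes an RNA-binding protein of the nervous system, 3R:13834587-13836296 had 363 reads and the junction starting 3 bases further had 15. The pair of CG17816 differed by 4 bases on the donor side and had 289 and 129 reads.

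Dominance ran from near complete to nearly flat. Over all head reads, the most abundant junction of a host held between 10% (Ef2b) and 87.3% (scrib) of the gene's reads, with a median of 37.6% and quartiles of 26.5% and 45.9%. It held over 50% in 13 hosts and under 25% in 11. In hosts with 5 to 9 junctions the median was 51.0%. An effective number of junctions, the inverse of the sum of squared shares, was 1.31 in scrib, which listed 15 junctions, 11.5 in slo, which listed 33, and 15.4 in Ppn, which listed 37.

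**Figure D2:**
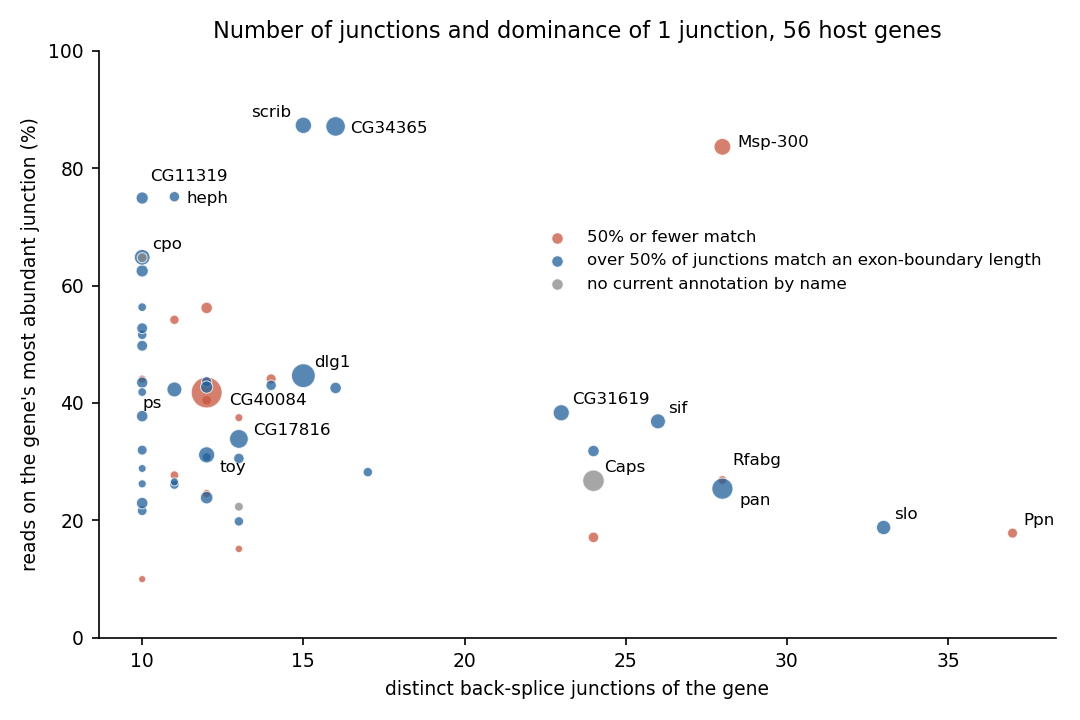
Share of a gene's head reads on its most abundant junction (vertical axis, percent) against its number of distinct junctions (horizontal axis) for the 56 hosts, with point area growing with reads and colour giving the share of junctions that match an exon-boundary length. scrib and CG34365 lie at 87.3% and 87.1%, and slo and Ppn, with 33 and 37 junctions, at 18.8% and 17.8%.

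The leading junction was picked on all 16 head libraries, in which RNase R libraries hold most reads. Within single libraries, the median share over hosts averaged 35.5% ± 3.1 in RNase R and 33.3% ± 6.2 in mock (SD, n = 8 each), which differ by less than the spread between libraries. The order depends on where the junction is picked. With the junction picked in mock libraries the averages were 30.9% in RNase R and 41.8% in mock.

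In the summed RNase R reads the same junction led in 53 of 56 hosts, and in the summed mock reads in 41. In 14 hosts it led in each of the 8 RNase R libraries, and in 5 hosts in each of the 8 mock libraries, where a host often had few reads. Of the 12 hosts with most reads, 3 had another leader in the summed mock reads: 4:1265678-1269135 led in Caps, 4:115049-120101 in pan and 4:1012692-1019331 in toy.

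The 12 hosts with the most reads show the range. CG40084 (current name uex), which encodes a magnesium transporter of the CNNM family, had the most reads, 2508. Its top junction 2RHet:3154309-3155516 had 63.7 to 108 reads per 10000 with a median of 80.6 in RNase R libraries, and 37.5 to 194 with a median of 143 in mock libraries. Its second junction 2RHet:3174710-3175043, of a single exon, had 53.9 to 119 with a median of 81.7 in RNase R and 12.5 to 70.9 with a median of 39.4 in mock libraries. Both treatments overlapped at each junction, but the junctions had similar medians after RNase R, while the first was ahead in mock.

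CG34365 (current name Stacl), an adaptor protein gene, and scrib, a scaffold of cell polarity and synapses, were nearly single-circle genes with a long tail. CG34365 had 811 of its 931 reads on 2R:11340362-11344320, and the share of that junction was 83.8% to 90.8% in RNase R libraries and 50% to 100% in the 7 mock libraries with reads. Its other 15 junctions had 24 reads or fewer each. scrib had 536 of 614 reads on 3R:22380079-22381373, with shares of 83.3% to 93.3% in RNase R and 20% to 100% in mock libraries.

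cpo was intermediate, with 363 of 560 reads on 3R:13834587-13836296 and shares of 54.1% to 72.1% in RNase R and 25% to 100% in mock libraries. CG31619 (current name nolo), an ADAMTS-like matrix protein gene, had 2 junctions of similar size: 2L:21716325-21717672 with 230 reads and 2L:21727006-21727573 with 194. In toy the first junction had 187 and the second 162 reads, in pan 282 and 253, in Caps 308 and 274. sif had 184 reads on its first junction and 75 on its second.

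The MAGUK scaffold gene dlg1 (discs large) had 1440 reads. Its top junction X:11291858-11292855 had 15.8 to 117 reads per 10000 with a median of 63.2 in RNase R libraries, and 7.40 to 112.5 with a median of 57.3 in mock libraries. The second, X:11289273-11290136, had 26.7 to 59.0 with a median of 43.7 in RNase R and 0 to 50.7 with a median of 27.3 in mock libraries. The wide range of the first junction follows the title number, as described further on.

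The first comparison asks which junctions hold their place among back-splice reads after RNase R, relative to mock. Of 242 member junctions with enough reads to test, 3 rose and 20 fell (edgeR quasi-likelihood F-test, Benjamini-Hochberg adjusted p under 0.05). That is 9.50% of the members, where 7.31% of all 1354 tested junctions were called, 1.11% of them as higher and 6.20% as lower. The median log2 fold change was 0.16 over members and 0.26 over all junctions. The split by direction depends on the scaling of the libraries: 10 rose and 17 fell with RLE factors, 9 and 18 with library totals alone, and 45 and 13 with TMM over all tested junctions, which moves the median of all junctions to 1.12.

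The junctions that fell were mostly those whose length matched no exon boundary. Of 30 tested junctions without a match, 14 fell and 0 rose, with a median log2 fold change of -1.96. The 14 came from 7 genes, so they are not 14 separate cases. Of 195 tested junctions with a match, 4 fell and 3 rose, with a median of 0.28. All 5 tested junctions of ninaE fell, also with RLE factors, library totals alone or TMM over all junctions.

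The smallest p belonged to the distant-end junction of Msp-300, 2L:816665-8042117. It had 1.20 to 26.7 reads per 10000 with a median of 10.5 in RNase R libraries, and 91.3 to 604 with a median of 344 in mock libraries. The groups did not overlap, and the junction was lower after RNase R in 8 of 8 pairs (log2 fold change -5.12 ± 0.19 SE, adjusted p = 1.2e-155, edgeR). The distant-end junction of CG34417, X:4256493-15005055, had 0 to 3.19 reads per 10000 with a median of 0.71 in RNase R libraries, and 2.92 to 160 with a median of 36.1 in mock libraries. It was lower in 8 of 8 pairs (log2 fold change -5.29 ± 0.46 SE, adjusted p = 3.5e-28, edgeR), and the ranges overlapped slightly.

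In ninaE, 3R:15712023-15712192 had 0 to 3.19 reads per 10000 with a median of 0.75 in RNase R libraries, and 28.3 to 79.8 with a median of 35.9 in mock libraries. The groups did not overlap (log2 fold change -5.39 ± 0.41 SE, adjusted p = 7.9e-36, edgeR, 8 of 8 pairs). The junctions from the same start to 15712204 and 15712124 had 1 and 2 reads in RNase R and 15 and 17 reads in mock libraries (adjusted p = 3.4e-12 and 3.5e-12, edgeR). That is 0.00906 and 0.0160 times the mock level, with 95% exact counting intervals of 0.00022 to 0.0589 and 0.00179 to 0.0674. For 15712233, listed with 0 reads in RNase R and 10 reads in mock libraries, the level was at least 24.5-fold lower after RNase R, taking a floor of 3 reads.

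CG17108, Rfabg and Atpalpha, which encodes the sodium pump's alpha subunit, showed the same direction at short junctions. CG17108 2L:10693496-10693633 had 0 to 4.11 reads per 10000 with a median of 1.10 in RNase R, and 0 to 57.1 with a median of 15.0 in mock libraries (log2 fold change -4.28 ± 0.53 SE, adjusted p = 1.0e-13, edgeR, 6 of 8 pairs). Rfabg 4:1091375-1091549 had 0 to 1.24 with a median of 0.30 in RNase R, and 0 to 33.9 with a median of 14.3 in mock libraries (log2 fold change -4.66 ± 0.59 SE, adjusted p = 3.1e-13, edgeR, 6 of 8 pairs). Atpalpha 3R:16799644-16799748 had 0 to 2.05 with a median of 0 in RNase R, and 0 to 33.9 with a median of 16.6 in mock libraries (log2 fold change -5.09 ± 0.69 SE, adjusted p = 9.7e-12, edgeR, 5 of 8 pairs). In all 3 the ranges overlapped, and some mock libraries had no read. With 2 reads in RNase R libraries, the Atpalpha level was 0.0160 times that of mock (95% exact counting interval 0.00179 to 0.0674). This Atpalpha junction is listed on the minus strand, while the most abundant junction under that name, 3R:16789447-16789915, is listed on the plus strand. Summed junctions of muscle, photoreceptor and fat body markers were also lower after RNase R. Junctions of 7 of 8 photoreceptor markers, ninaE among them and inaD at 0, summed to 23.3 to 39.0 reads per 10000 in RNase R and 183 to 415 in mock libraries. Those of 5 of 6 fat body markers, Rfabg among them and Fbp1 at 0, summed to 3.95 to 19.6 in RNase R and 20.4 to 75.3 in mock libraries. Both libraries of a pair came from the same RNA sample, and so from the same cells. What lowered these sums was not tested.

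Junctions that rose after RNase R were the top junctions of CG34365 and sif and the second junction of CG40084. CG34365 2R:11340362-11344320 rose in 8 of 8 pairs without overlap of the groups (72.8 ± 8.7 reads per 10000 in RNase R and 33.7 ± 21.6 in mock libraries, SD, n = 8 each, log2 fold change 0.73 ± 0.23 SE, adjusted p = 0.026, edgeR). The rises are relative to the other back-splice reads, and none of the 3 was called without replicate 1 of slow18, replicate 2 of slow18 or replicate 1 of WT18.

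Summed per gene, 12 of 56 hosts changed (3 rose and 9 fell), 21.4%, where 9.41% of all 893 tested genes were called, 1.68% as higher and 7.73% as lower. Of the 9 that fell, 8 were among the 15 hosts with few matched lengths (ninaE, Msp-300, CG17108, CG34417, Rfabg, Atpalpha, CG11458 and cpx) and the other was Caps. In Msp-300 and CG34417 the distant-end junction of uncertain host held 447 of 472 and 42 of 52 mock reads. The falls of these totals mostly follow that junction, and totals were not fitted without it. The total of ninaE averaged 3.2 ± 3.2 reads per 10000 in RNase R and 99.1 ± 18.7 in mock libraries, and that of Msp-300 averaged 20.5 ± 9.4 in RNase R and 355 ± 162 in mock libraries (SD, n = 8 each). Ppn went the other way: its total averaged 15.6 ± 7.3 in RNase R and 2.3 ± 3.9 in mock libraries (log2 fold change 1.82 ± 0.59 SE, adjusted p = 0.025, edgeR, 8 of 8 pairs), with 152 of its 157 reads in RNase R libraries. Ppn is also a hemocyte marker. All 4 hemocyte markers together, Ppn among them, had 4.90 to 30.8 reads per 10000 in RNase R and 0 to 18.9 in mock libraries. Both treatments used the same RNA samples, and what raised Ppn was not tested. CG34365 and sif rose as well. With RLE factors 8 hosts rose and 7 fell, with library totals alone 5 and 8, and with TMM over all junctions 20 and 7.

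**Figure D3:**
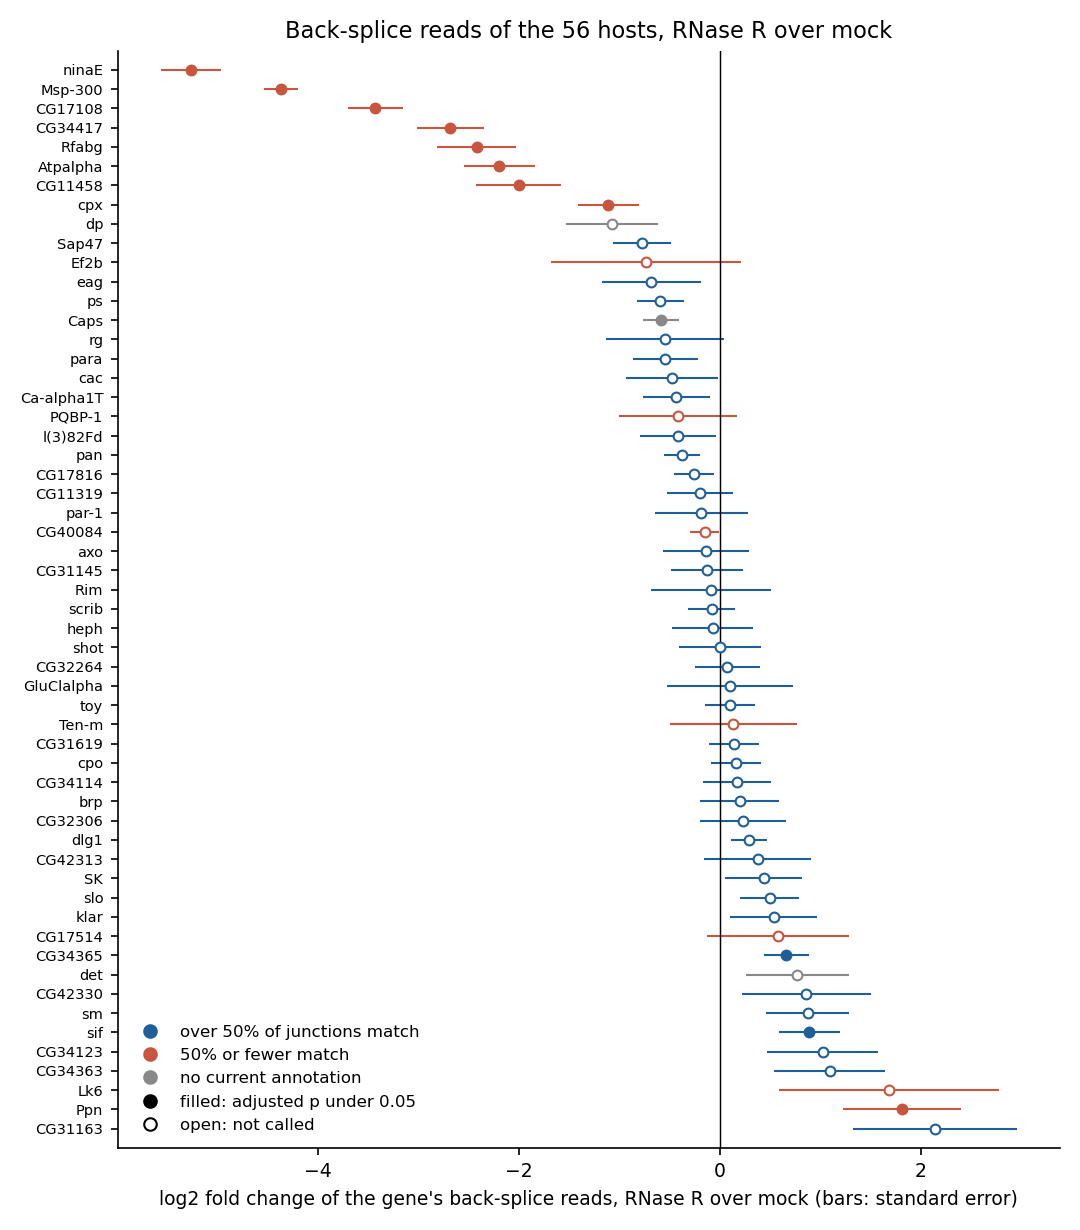
Log2 fold change of each host's summed back-splice reads, RNase R over mock, with its standard error as bars; filled points have an adjusted p under 0.05 in edgeR. Colour gives the share of the host's junctions that match an exon-boundary length, and 8 of the 9 hosts that fell are in the class with 50% or fewer matched. Among these, Msp-300 and CG34417 had 94.7% and 80.8% of their mock reads on a distant-end junction of uncertain host.

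Use within a gene, the log2 fold change of a junction minus that of its gene's total, shifted between RNase R and mock at 11 of 239 tested member junctions in 5 hosts, 4.60%, where 2.57% of all 816 tested junctions were called, 1.10% as higher and 1.47% as lower. Of the 11, 7 rose and 4 fell. The count was 7 without replicate 2 of slow29, replicate 2 of WT29 or replicate 2 of WT18. As a gene, 4 of 51 hosts had a shift (Msp-300, CG34417, Atpalpha and CG40084), where 3.87% of all 284 tested genes did. In CG40084 the first junction took 38.6% of the gene's reads in RNase R and 64.6% in mock libraries, and its use fell by 0.85 on the log2 scale (adjusted p = 6.5e-06, edgeR). The second took 37.3% in RNase R and 20% in mock libraries, and its use rose by 0.76 (adjusted p = 0.0079, edgeR), a call lost without either of 2 WT RNA samples (adjusted p = 0.11 without replicate 2 titled 29, and 0.083 without replicate 2 titled 18). Both junctions match exon lengths.

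In Atpalpha, 3R:16789447-16789915 had 64 of 78 reads (82.1%) in RNase R libraries and 1 of 42 reads (2.38%, 95% Clopper-Pearson interval 0.06% to 12.6%) in mock libraries, and its use rose by 4.35 on the log2 scale (adjusted p = 6.5e-06, edgeR). The level of that junction itself was not called (adjusted p = 0.064, edgeR). It is listed on the plus strand, while 3R:16799644-16799748, whose use fell, is listed on the minus strand. The shift in Atpalpha thus sets junctions of opposite strands under the same gene name against each other. In Msp-300 and CG34417 the use of 5 junctions inside the gene rose, measured against a total in which the distant-end junction held 94.7% and 80.8% of the mock reads. Among them, Msp-300 2L:5168404-5168504 is listed on the minus strand, while the distant-end junction of Msp-300 is listed on the plus strand. Without junctions over 100 kb, the use of Msp-300 2L:5146993-5148882 was -0.10 and that of CG34417 X:6470823-6471145 was -0.56 on the log2 scale, neither of them called, and 5 junctions were called in place of 11.

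The second comparison sets slow against WT heads. In RNase R libraries 7 of 210 member junctions changed (2 rose and 5 fell), 3.33%, near the 3.19% of all 1221 tested junctions, of which 1.15% were higher and 2.05% lower. With library totals alone, or TMM over all junctions, 1 rose and 6 fell. The median log2 fold change was -0.04 over members and -0.08 over all. The count fell to 3 without replicate 2 of slow29 and to 4 without replicate 2 of WT29, and DESeq2 called 2.

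The smallest p was at a junction of dlg1 that ranks behind its 2 main ones, X:11275889-11277145. In slow heads it had 3.60, 4.34, 4.90 and 6.16 reads per 10000, and in WT heads 22.7, 31.9, 20.5 and 20.3. The groups did not overlap, with the level lower in slow (log2 fold change -2.34 ± 0.36 SE, adjusted p = 4.6e-08, edgeR). Its use within dlg1 also fell, by 2.18 on the log2 scale (adjusted p = 2.4e-05, edgeR), and was the only shift of use called among all 719 junctions tested (0.139%), which makes dlg1 the only gene of 259 with a shift (0.386%). It stayed called without each RNA sample in turn. It took 3.96% of dlg1 reads in slow and 16.3% in WT heads.

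The top junction of sif, 3L:5697025-5699673 at the base of its fan, had 9.90, 8.68, 8.16 and 4.11 reads per 10000 in slow heads, and 26.7, 29.5, 13.9 and 21.5 in WT heads. Every slow library was below every WT library (log2 fold change -1.48 ± 0.32 SE, adjusted p = 0.00078, edgeR). In CG31163, 3R:17999654-18000449 had 0.90, 0.62, 0 and 2.05 in slow heads, and 5.93, 3.98, 10.7 and 8.98 in WT heads, again without overlap (log2 fold change -2.81 ± 0.69 SE, adjusted p = 0.0042, edgeR). Its 3 reads in slow against 45 in WT heads give a ratio of 0.108 (95% exact counting interval 0.0214 to 0.335). In the calcium channel gene cac, X:11842661-11843287 had no read in the 4 slow libraries and 1.48, 2.39, 6.55 and 4.79 reads per 10000 in WT heads, at least 4.54-fold lower in slow with a floor of 3 reads (adjusted p = 0.016, edgeR), a call lost without any of 3 slow libraries (adjusted p = 0.052 to 0.099).

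Higher in slow was the top junction of CG11319 (current name Dpp10), a dipeptidyl-peptidase-like gene: 2L:6580415-6587143 had 29.7, 35.9, 22.9 and 12.3 reads per 10000 in slow heads, and 12.8, 7.97, 12.3 and 17.9 in WT heads. The ranges overlapped at the lowest slow library (log2 fold change 1.14 ± 0.27 SE, adjusted p = 0.0042, edgeR), and the call was lost without replicate 2 of slow29 or replicate 2 of WT29 (adjusted p = 0.10 and 0.051). The minor acceptor of ps, 3R:5257754-5258561, had 13.5, 11.2, 6.53 and 6.16 in slow heads, and 1.97, 4.78, 4.92 and 5.38 in WT heads, without overlap (log2 fold change 1.37 ± 0.43 SE, adjusted p = 0.047, edgeR). That call and the one at CG34114 3R:6849190-6849539, which was lower in slow (log2 fold change -1.16 ± 0.36 SE, adjusted p = 0.047, edgeR), were each lost under 10 of 17 alternatives (adjusted p up to 0.43 and 0.28).

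Gene totals moved in 6 of 56 hosts in the same libraries (3 rose and 3 fell), 10.7%, where 5.43% of all 828 genes were called, 2.66% as higher and 2.78% as lower. With library totals alone 2 rose and 5 fell. CG11319, CG11458 and CG17816 were higher in slow, and sif, CG34114 and det were lower. CG17816 averaged 89.5 ± 6.6 reads per 10000 in slow and 64.2 ± 5.3 in WT heads (SD, n = 4 each, log2 fold change 0.61 ± 0.17 SE, adjusted p = 0.010, edgeR), without overlap. The count was 2 without replicate 2 of slow29, 3 without replicate 1 of slow18 and 4 without replicate 2 of WT18.

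In mock libraries no member junction of 53 tested was called between slow and WT (edgeR, 2 with an unadjusted p under 0.05, 0 by DESeq2), where 0% of all 230 tested junctions were. The smallest p was at toy 4:1012692-1019331, with 0, 4.43, 12.5 and 0 reads per 10000 in slow heads, and 29.2, 18.5, 12.7 and 22.8 in WT heads (log2 fold change -2.18 ± 0.84 SE, adjusted p = 0.24, edgeR), which is 2 reads in slow and 19 in WT heads. Next came Msp-300 2L:816665-8042117 (0.70 ± 0.27) and ps 3R:5257754-5258561 (1.60 ± 0.86), as log2 fold change with SE. In use within genes 0 of 38 were called (0 with an unadjusted p under 0.05), and no gene total of 41 (6 with an unadjusted p under 0.05), where 1.14% of all 263 genes were. At 800 to 3427 reads per library these comparisons had few reads to work with.

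The third comparison sets title number 29 against 18. In RNase R libraries 36 of 210 member junctions in 22 hosts changed (16 rose and 20 fell), 17.1%, where 15.2% of all 1221 tested junctions were called, 4.75% as higher and 10.5% as lower. The median log2 fold change was -0.11 over members and -0.23 over all. The direction of the balance depends on the scaling: 23 rose and 8 fell with RLE factors, 20 and 11 with library totals alone, and 23 and 7 with TMM over all junctions, where the median of all junctions was 0.05, -0.08 and 0.07. The count was 17 to 23 without replicate 1 of WT29, replicate 2 of WT18, replicate 1 of WT18, replicate 1 of slow18 or replicate 2 of slow18.

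The smallest p was at dlg1. X:11291858-11292855 had 29.7, 32.2, 15.8 and 31.1 reads per 10000 in libraries titled 29, and 111, 117, 94.2 and 112.5 in libraries titled 18. All 4 libraries of 29 were far below all 4 of 18, in slow and WT alike (log2 fold change -2.20 ± 0.20 SE, adjusted p = 3.6e-24, edgeR). Its neighbour X:11289273-11290136 had 43.2, 47.7, 52.8 and 59.0 at 29, and 37.6, 26.7, 44.2 and 35.3 at 18, a difference not called (adjusted p = 0.32, edgeR).

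As a share of dlg1 reads, the first junction took 25.2% at 29 and 61.1% at 18, and the second 49.4% at 29 and 21.3% at 18. The use of the first fell by 1.29 on the log2 scale (adjusted p = 1.6e-05, edgeR) and that of the second rose by 1.24 (adjusted p = 9.3e-05, edgeR). In all 4 libraries titled 29 the second junction had the larger share, and in all 4 titled 18 the first had it. Shifts of use were called at 3 of 204 member junctions, 1.47%, near the 1.39% of all 719 (0.834% higher and 0.556% lower). As a gene, dlg1 and Msp-300 of 47 hosts had a shift, where 3.47% of all 259 tested genes did. The remaining one, Msp-300 2L:5168404-5168504, rests on 10 reads at 29 and 0 at 18 and was lost under 6 of 12 alternatives (adjusted p up to 0.17). It is listed on the minus strand. The total it is measured against is 54.9% the distant-end junction, which is listed on the plus strand and has an uncertain host.

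**Figure D4:**
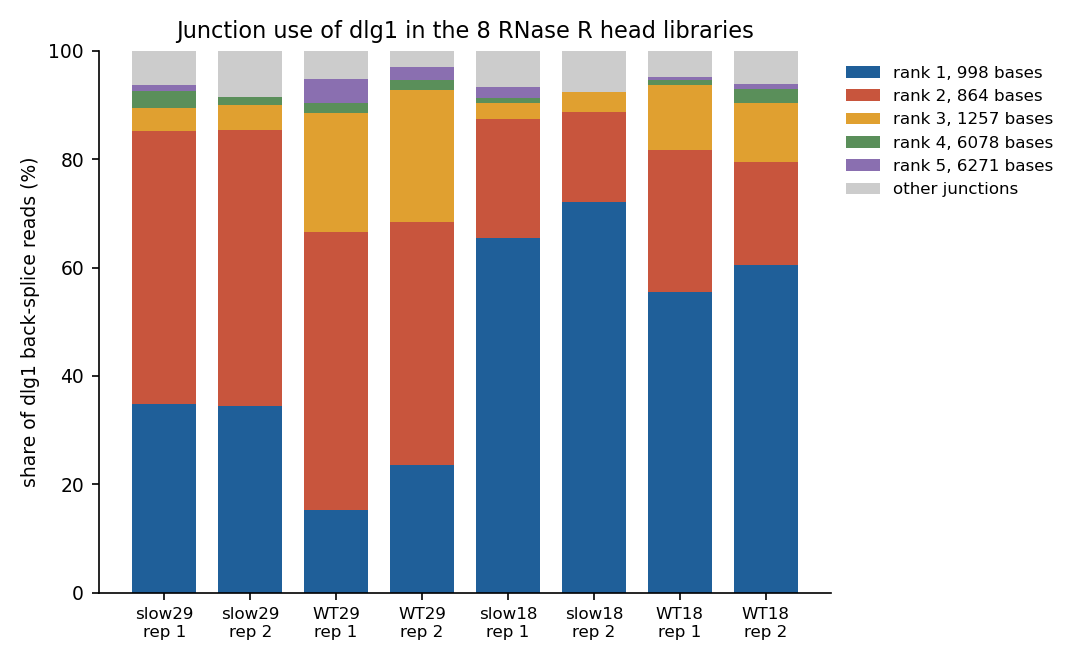
Share of dlg1 back-splice reads (vertical axis, percent) taken by its 5 most abundant junctions and by the others in each of the 8 RNase R head libraries, with those titled 29 on the left. The junction of 998 bases holds 15.3% to 34.7% at 29 and 55.6% to 72.2% at 18, and the junction of 1257 bases holds 22.01% and 24.2% in the WT29 libraries.

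Of the 10 tested junctions of Caps, 5 rose at 29 and 0 fell, where 4.75% of all tested junctions rose, with 6 and 0 under RLE factors or TMM over all junctions. 4:1250828-1259724 had 19.8, 13.02, 17.8 and 7.17 reads per 10000 at 29, and 3.27, 0, 1.64 and 2.39 at 18 (log2 fold change 2.61 ± 0.47 SE, adjusted p = 3.1e-06, edgeR). 4:1265678-1269135 had 33.3, 26.7, 32.6 and 22.3 at 29, and 14.7, 8.21, 9.01 and 10.8 at 18 (log2 fold change 1.26 ± 0.29 SE, adjusted p = 0.00028, edgeR). Neither pair of groups overlapped. The total of Caps averaged 121 ± 16 at 29 and 57.8 ± 4.2 at 18 (SD, n = 4 each), and no shift of use within it was called.

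The synaptic fusion regulator complexin, cpx, rose at its long junction 3R:108396-121422, with 17.1, 17.97, 15.3 and 17.5 reads per 10000 at 29, and 3.27, 4.11, 3.28 and 5.98 at 18. These groups were tight and far apart (log2 fold change 1.74 ± 0.38 SE, adjusted p = 0.00017, edgeR). In CG40084, 2RHet:3169315-3169621 had 42.3, 35.3, 52.3 and 57.4 at 29, and 19.6, 28.7, 22.1 and 17.9 at 18 (log2 fold change 1.003 ± 0.24 SE, adjusted p = 0.00051, edgeR). A junction that shares its 3169621 end, 2RHet:3169169-3169621, fell by 0.94 on the log2 scale (adjusted p = 0.039, edgeR), so that CG40084 held calls in both directions.

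cpo fell at its top junction 3R:13834587-13836296, with 17.99, 22.9, 24.2 and 23.9 reads per 10000 at 29, and 34.3, 55.4, 50.8 and 48.5 at 18. The groups did not overlap (log2 fold change -1.22 ± 0.23 SE, adjusted p = 5.7e-06, edgeR). CG32264 3L:3722156-3723105 had 1.80, 3.10, 1.97 and 3.98 at 29, and 16.3, 8.21, 7.37 and 14.4 at 18 (log2 fold change -2.26 ± 0.45 SE, adjusted p = 1.8e-05, edgeR). In Sap47, a synapse-associated protein gene, 3R:11779880-11780927 had 4.50, 2.48, 1.48 and 3.98 at 29, and 14.7, 10.3, 5.74 and 10.2 at 18 (log2 fold change -1.95 ± 0.46 SE, adjusted p = 0.00048, edgeR). In both, each library titled 29 was below each titled 18.

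**Figure D5:**
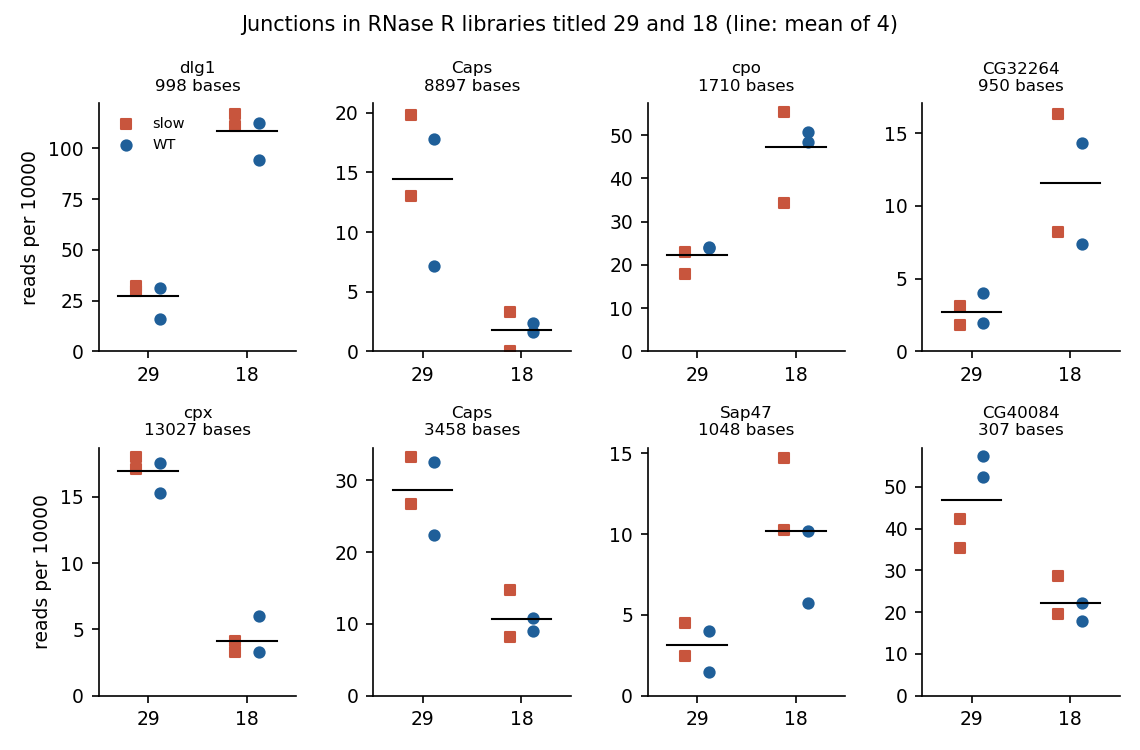
Reads per 10000 listed back-splice reads (vertical axis) of the 8 member junctions with the smallest p between title numbers 29 and 18 in RNase R libraries, with squares for slow, circles for WT and a line for the mean of 4 libraries. The groups do not overlap in any of the 8 panels, for example 15.3 to 17.97 at 29 and 3.27 to 5.98 at 18 for cpx.

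By gene total, 12 of 56 hosts changed (5 rose and 7 fell), 21.4%, where 15.6% of all 828 genes were called, 5.56% as higher and 10% as lower. Caps, cpx, toy, CG31619 and CG17514 were higher at 29. dlg1, cpo, SK, CG32264, klar, Sap47 and CG17108 were lower at 29. The small-conductance potassium channel gene SK averaged 15.99 ± 2.87 reads per 10000 at 29 and 31.7 ± 1.9 at 18 (SD, n = 4 each, log2 fold change -1.03 ± 0.24 SE, adjusted p = 0.00039, edgeR). With RLE factors, and with TMM over all junctions, 7 rose and 3 fell.

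In mock libraries 5 of 53 member junctions were called between 29 and 18 (1 rose and 4 fell), 9.43%, where 5.22% of all 230 were, 1.74% as higher and 3.48% as lower. With TMM over all junctions 2 rose and 2 fell. The main fit leaves out the replicate number, by which mock libraries were taken to pair. With that number as a block 3 were called, without cpo and CG31619 (adjusted p = 0.087 and 0.060, edgeR). dlg1 X:11291858-11292855 had 18.9, 35.4, 14.6 and 7.40 reads per 10000 at 29, and 112.5, 79.1, 108 and 103 at 18, without overlap (log2 fold change -2.45 ± 0.45 SE, adjusted p = 1.6e-05, edgeR). It was not called without replicate 1 of WT29 (adjusted p = 0.057, edgeR), where no member junction was. The other 4 were ps 3R:5257751-5258561 (-1.91 ± 0.59), cpo 3R:13834587-13836296 (-1.67 ± 0.54), CG34417 X:4256493-15005055 (-1.85 ± 0.51) and CG31619 2L:21716325-21717672 (2.62 ± 0.81), as log2 fold change with SE, with adjusted p of 0.016 to 0.041 in edgeR, and their groups overlapped.

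CG31619 had 33 reads at 29 and 2 at 18, a ratio of 7.23 (95% exact counting interval 1.85 to 62.2). For cpo the call was lost under 12 of 16 alternatives, for CG31619 under 9, for ps under 8 and for CG34417 under 4 of 15. The call count was 0 without replicate 1 of WT29, 1 without replicate 2 of WT29, 2 without either WT18 sample and 3 without replicate 2 of slow29. Gene totals were called in 4 of 41 hosts (Caps rose, and dlg1, cpo and CG34417 fell), 9.76%, where 3.80% of all 263 genes were, 1.90% in each direction. With TMM over all junctions 2 rose and 0 fell, with RLE factors 0 rose and 1 fell, and with library totals alone 0 rose and 3 fell. That count was 0 to 2 without any 1 RNA sample. In CG34417 the distant-end junction of uncertain host held 16 of 23 mock reads at 29 and 26 of 29 at 18. The total of that gene thus mostly follows the junction. In use within genes 0 of 38 junctions were called (7 with an unadjusted p under 0.05), where 0% of all 77 were.

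Whether a change in one condition depends on another was tested directly. No member junction was called for genotype by title number in RNase R libraries (0 of 210, 4 with an unadjusted p under 0.05), for treatment by genotype (0 of 242, 2) or for treatment by title number (0 of 242, 7), in edgeR, where 0% of all 1221 or 1354 junctions were. Leaving out replicate 1 of WT18 gave 1 call for genotype by title number.

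Grouped by role, on lists chosen with earlier results known, 7 synapse and scaffold hosts (brp, Caps, cpx, dlg1, Rim, scrib and sif) had 36 junctions tested between 29 and 18 in RNase R libraries, of which 7 rose and 2 fell, with a median log2 fold change of 0.06. All 7 rises were in Caps (5) and cpx (2). The 6 ion channel hosts (Ca-alpha1T, cac, eag, para, SK and slo) had 30 tested, of which 1 rose and 4 fell (3 of them in SK), with a median of 0.23. The 3 RNA-binding hosts (heph, ps and sm) had 11 tested, of which 3 fell and 0 rose, with a median of -0.42. The lists leave out hosts such as cpo, Sap47 and GluClalpha. There 2 of 4 tested cpo junctions and 1 of 3 in Sap47 fell, and 1 of 2 in GluClalpha rose. Over all tested junctions 4.75% rose and 10.5% fell, with a median of -0.23. With RLE factors 10 synapse and scaffold junctions rose and 1 fell, 1 ion channel junction rose and 0 fell, and 1 RNA-binding junction rose and 2 fell. Between RNase R and mock, 0 of 35 ion channel junctions and 0 of 12 RNA-binding junctions were called, and 1 of 39 synapse and scaffold junctions rose and 2 fell, where 1.11% of all tested junctions rose and 6.20% fell. With TMM over all junctions 5, 2 and 10 of them rose and 0 fell.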

How the data were processed

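Back-splice junctions were measured in 16 head libraries, 2 S2 libraries and 1 stranded library. The deposited values are whole-number counts of reads per junction. CASAVA, Bowtie and dm3 are named in the submitters' processing notes, without versions. The method that called the junctions is not stated in the labels. The smallest total in the deposited tables is 2 reads, so rarer junctions are unseen. Coordinates are dm3, counted from 1.

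Levels, gene totals and interactions were tested by quasi-likelihood in edgeR 4.0.16 under R 4.3.3 with limma 3.58.1, two-sided. The p-values were adjusted over all tested junctions or genes (Benjamini-Hochberg, threshold 0.05). A junction was fitted if both replicate tables list it, its reads in the libraries of the fit sum to 10 or more and 2 or more of these libraries hold reads. TMM factors came from the 100 most abundant. The RNA sample was a term of the RNase R against mock fit, since the series text describes both libraries as made from 1 sample. Genotype was compared with title number as a factor, and title number with genotype as a factor. Use within a gene came from edgeR's diffSpliceDGE. An SE is the absolute log2 fold change over the square root of F and restates the test. A zero was bounded by a floor of 3 reads per group. Floors cover counting error only.

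Alternatives were other scalings, filters of 2 and 50 reads, junctions of either table, spans up to 100 kb, a replicate block, each RNA sample left out and DESeq2 1.42.0. The scripts were tested on simulated data. Replicate differences of mock groups correlated at 0.255 to 0.571 over 39 junctions, so replicate numbers were taken to pair mock libraries. The main mock fits leave this pairing out, and the replicate block was an alternative. A chi-square test of the counts found no difference between the WT29 mock replicates (p = 0.108, 99 junctions, chi-square over degrees of freedom 1.18). Their totals were 3427 and 2704, their RNase R libraries differed beyond the sampling noise, and they were counted as 2.

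Named junctions are the 8 with the smallest p among those called in each comparison, or the 3 smallest where none was. Other junctions named lead their gene, a fan or a short list and were chosen after their values were seen. Members, gene lists and tests were chosen with earlier results of these data known. Lengths were matched by current annotation for 53 of 56 hosts. RNase R and mock contrasts of genotype or title number share RNA samples and are not independent.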

Additional observations from a re-analysis of the deposited data

Results flagged for a closer look

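In 12 of 110 groups of 4 or 8 libraries a single library stood far from the others. The limit used marks about 1 in 20 groups of normally distributed values by chance, a share that need not hold for low counts. The flags of ninaE 3R:15712023-15712204 in RNase R and Atpalpha 3R:16789447-16789915 in mock libraries are 1 read each. No explanation was tested.

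For CG34417 X:4256493-15005055, replicate 2 of WT18 mock had 159.8 reads per 10000, where the other mock libraries had 2.92 to 67.8. For CG17108 2L:10693496-10693633, replicate 2 of slow18 RNase R had 4.11, where the others had 0 to 1.64. For ninaE 3R:15712023-15712204, replicate 1 of WT29 RNase R had 0.494 and the other RNase R libraries had 0.

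Atpalpha 3R:16799644-16799748 had 2.053 reads per 10000 in replicate 2 of slow18 RNase R, against 0 to 0.797 in the others. Atpalpha 3R:16789447-16789915 had 3.70 in replicate 2 of WT29 mock and 0 in the other mock libraries. Msp-300 2L:5146993-5148882 had 12.5 in replicate 1 of slow18 mock, against 0 to 2.92. Msp-300 2L:5168404-5168504 had 3.98 in replicate 2 of WT29 RNase R, against 0 to 1.86 in the other RNase R libraries.

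Replicate 1 of WT29 RNase R was low at 2 junctions, CG34114 3R:6849190-6849539 (8.89 reads per 10000, where the other WT libraries had 18.3 to 19.1) and dlg1 X:11291858-11292855 (15.8, where the other libraries titled 29 had 29.7 to 32.2). The top junction of Caps took 0% of the gene's reads in replicate 2 of slow18 mock, against 16.9% to 25% in the others. The top junction of Msp-300 took 10.5% in replicate 2 of WT18 RNase R, against 47.1% to 78.3%, and 80% in replicate 2 of WT18 mock, against 92.6% to 97.0%.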

How the results depend on the processing

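Of 773 alternative values for 49 named results, 699 kept direction and side of the threshold, 72 lost the call and 2 reversed: use of Msp-300 2L:5146993-5148882 (-0.10) and CG34417 X:6470823-6471145 (-0.56) without spans over 100 kb. There, totals no longer hold the distant-end junctions, and 5 use calls were left. For RNase R against mock, TMM over all junctions gave 58 junctions and 27 gene totals, a filter of 50 reads 14 junctions and 2 use calls, and DESeq2 15 junctions. For slow against WT, DESeq2 gave 2 junctions in RNase R libraries, and the 50-read filter 1 gene total in mock. For 29 against 18 in RNase R libraries, the 50-read filter gave 22 junctions and 10 use calls, and DESeq2 17 junctions. In mock libraries the count was 2 without the low-count filter, 1 with 50 reads, 3 with the replicate block and 1 with DESeq2. Gene totals there numbered 1 with RLE factors, 2 with TMM over all junctions and 1 without the filter. The cause of these moves was not tested, beyond the smaller set of junctions under the 50-read filter. Leaving out each RNA sample gave 16 to 21 junctions, 7 to 11 use calls and 10 to 13 gene totals for RNase R. It gave 3 to 7, 1 and 2 to 6 for slow in RNase R libraries, and 0, 0 and 0 to 1 in mock. It gave 17 to 35, 2 to 4 and 10 to 13 for 29 in RNase R libraries, and 0 to 5, 0 and 0 to 2 in mock. Interactions ranged over 0 to 1 for genotype by title number and were 0 for both others. Top shares ranged over 34.8% to 36.1% in RNase R and 32.8% to 34.2% in mock, and were 30.9% and 41.8% with the junction picked in mock. In RNase R libraries replicate differences correlated at 0.0405 to 0.163, below the mock values, and the numbers were not taken to pair these libraries. A weak correlation does not show that pairing is absent. Both treatments share RNA samples, and why they differed here was not tested. A replicate block in RNase R libraries gave 34 junctions in place of 36 for 29 and 7 in both fits for slow. In mock libraries the block ended the calls at cpo and CG31619 and no other named call. Without the block of RNA samples RNase R gave 26 in place of 23. Mock depth of 800 to 3427 reads limits every mock comparison.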

Other observations

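S2 cells, a cultured fly line, listed few of these junctions, with 1 library per treatment and no test. The RNase R library listed 68 of the 814 junctions in 22 hosts, with 676 of 14874 reads (4.55%). The mock library listed 40 in 17 hosts, with 458 of 4421 reads (10.4%). Msp-300 2L:816665-8042117 alone had 125 reads in the RNase R and 357 in the mock library. Sap47 3R:11779880-11782029 had 92 reads in the RNase R and 17 in the mock library of S2 cells, and 13 reads over all 16 head libraries. CG31619 2L:21727006-21727573 had 45 reads in the RNase R and 4 in the mock library. The stranded library of WT heads listed 88 of the junctions in 38 hosts, with 473 of 2599 reads (18.2%), and held the most abundant junction of 29 hosts.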
